A study of Sus scrofa with 6 samples.

Results

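Major histocompatibility complex (MHC) class I genes and their peptide loading partners were described in peripheral blood mononuclear cell (PBMC) RNA of 6 pigs. The members were all rows of the expression table whose gene symbol is SLA- followed by a digit, together with B2M, TAP2 and TAPBP, which gave 8 of the 11564 rows. The SLA rows (SLA for swine leukocyte antigen) were SLA-1, SLA-6, SLA-7, SLA-8 and SLA-11, and all 8 members were among the 10735 genes tested. NLRC5, an activator of class I transcription, was sought as well and is not analysed here.

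The RNA came from Yorkshire pigs at 6 months of age, with 3 libraries labelled WT (nontransgenic controls) and 3 labelled Leptin-overexpressing, called Leptin 1 to 3 here. The transgenic animals were cloned by somatic cell nuclear transfer from fetal fibroblasts that had been electroporated with a leptin and AcGFP1 plasmid and selected with neomycin. The promoter of the transgene is given as that of leptin in the study's text and as CMV in its vector map, and the controls are not stated to be clones. Each library is a separate animal, and values are FPKM, fragment levels scaled to transcript length and library size, which can be compared between genes.

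The label check comes first, because 2 libraries went against it. LEP, the gene carried by the transgene, stood at 50.0, 0 and 0.118 FPKM in WT 1, WT 2 and WT 3, and at 0, 18.3 and 39.3 FPKM in Leptin 1, Leptin 2 and Leptin 3. The library labelled WT 1 held the highest LEP value and the library labelled Leptin 1 was listed at 0, so the fold change of each member is also given without these 2 libraries. The labels mixed the sexes as well: DDX3Y, a Y-linked RNA helicase gene, was at 34.96, 31.1 and 0.0092 FPKM in WT 1 to 3 and at 20.4, 1.8e-05 and 1.9e-06 FPKM in Leptin 1 to 3, although the donor fetus of the transgenic clones is described as male. All 9 T cell marker genes sought were listed, with summed levels of 846 to 1455 FPKM, and 5 of 7 B cell and 7 of 8 monocyte markers were listed too.

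A class I molecule is a heavy chain, which carries the peptide groove, held together with the invariant light chain beta-2 microglobulin, the product of B2M. Peptides cut by the proteasome are pumped into the endoplasmic reticulum by the TAP1 and TAP2 transporter, and tapasin, the product of TAPBP, holds the empty heavy chain at that transporter until a peptide is bound. The finished complex is shown on nearly all nucleated cells, where CD8+ T cells read it and NK cells sense its loss. In the pig SLA-1 is a classical heavy chain locus, and SLA-6, SLA-7 and SLA-8 are non-classical ones.

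B2M was among the most abundant transcripts of every library, and SLA-1 was the least steady member. In order of their median over the 6 libraries, the levels were 4839 FPKM for B2M, 827 for SLA-1, 819 for SLA-11, 387 for TAP2, 243 for SLA-6, 134 for TAPBP, 64.8 for SLA-8 and 47.8 for SLA-7. SLA-1 and SLA-11 could not be ordered, since each was the higher in 3 of the 6 libraries. The ranges of TAPBP and SLA-8 overlapped, with TAPBP the higher in 5 of 6 libraries, and those of SLA-8 and SLA-7 overlapped although SLA-8 was the higher in all 6. The other neighbours in this order did not overlap.

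**Figure D1:**
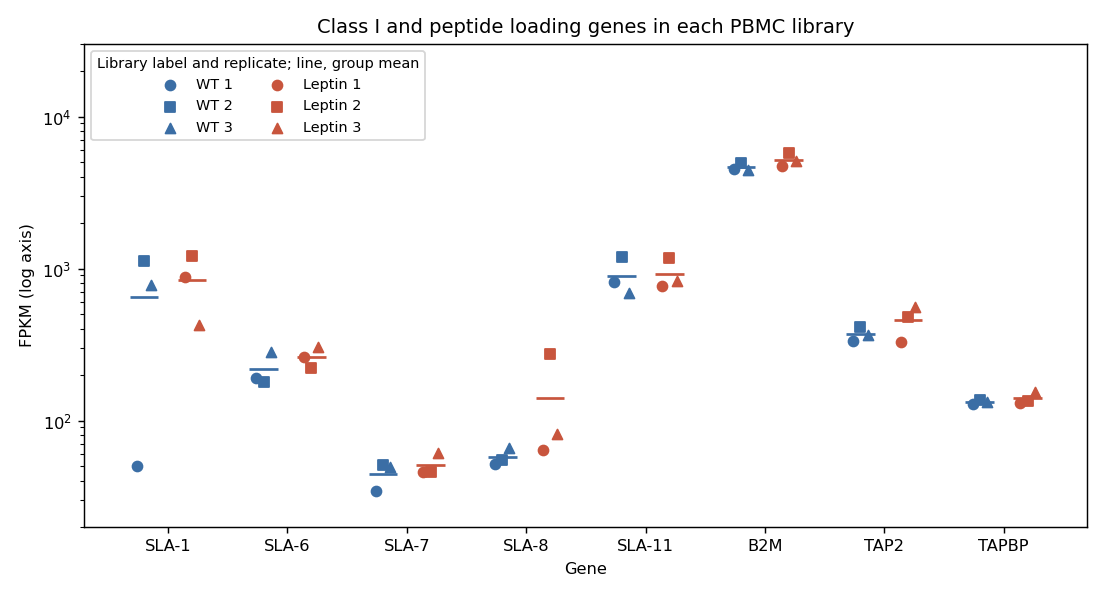
FPKM of each of the 8 genes (x axis) on a log axis (y axis), 1 point per library, with blue for the WT label, red for the Leptin-overexpressing label and the marker shape for the replicate number; horizontal lines are the group means (n = 3 each). SLA-1 in WT 1 (50.2 FPKM) and SLA-8 in Leptin 2 (275 FPKM) stand away from the other libraries, while B2M and TAPBP are tight.

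None of the 8 genes passed the test between the labels. In the limma fit across all genes 0 of the 8 passed an adjusted p of 0.05, against a background of 0.00932% of the genes tested (1 gene), and 0 of the 8 had an unadjusted p under 0.05, against 3.18%. The groups overlapped for all 8 members, where 7.63% of all genes did not overlap. The exact two-sided permutation test gave p from 0.2 to 0.8, and 3 animals against 3 cannot go below 0.1. All 8 fold changes were above 0, with a median of 0.23 (log2, Leptin-overexpressing minus WT). Over all genes tested 63.1% were above 0 and the median was 0.059. With median-of-ratios scaling 7 of the 8 members and 50.5% of all genes were above 0, with medians of 0.17 and 0.0022, and without both replicate 1 libraries these shares were 7 of 8 and 43.2%. With 1 library left out the median of the members ran from 0.096, without WT 1, to 0.29, without WT 2. The medians of all genes in these 2 settings were 0.0066 and 0.057.

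**Figure D2:**
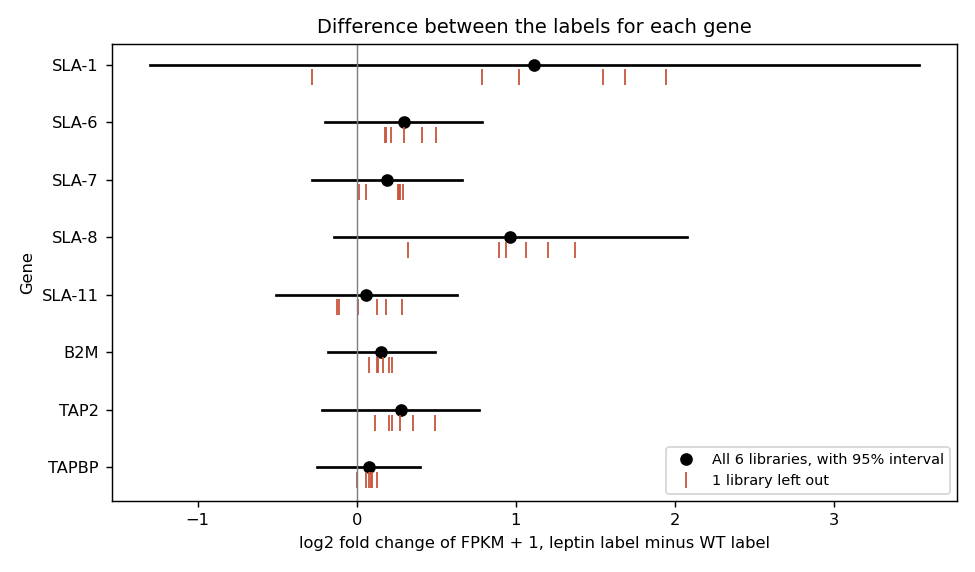
Log2 fold change of FPKM + 1 (x axis, Leptin-overexpressing label minus WT label) for each gene (y axis); black points and lines are the limma estimate and its 95% interval from all 6 libraries, and red ticks are the estimates with 1 library left out. Every interval crosses 0, and leaving out WT 1 moves SLA-1 from 1.12 to -0.28.

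Among the SLA rows, SLA-1 (ENSSSCG00000001231, chromosome 7, 24748104 to 24751642, as the table gives it with no genome build named) varied most. It stood at 50.2, 1115 and 778 FPKM in WT 1 to 3 and at 877, 1217 and 424 FPKM in Leptin 1 to 3. WT 1 was 8.44-fold below the next lowest library, Leptin 3, and the highest library was 24.2-fold above the lowest. The within-label SD was 1.80 on the log2 scale, above that of 99.7% of the genes tested. The mean was 648 ± 544 FPKM (SD, n = 3) for the WT label and 839 ± 398 FPKM (SD, n = 3) for the other, and the log2 fold change of 1.12 (SE 1.05, 95% interval -1.30 to 3.53) did not pass the test (limma, adjusted p = 0.993). That direction rested on the library labelled WT 1, because the log2 fold change was -0.28 without it and -0.37 without both replicate 1 libraries.

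Marker genes of other leukocytes moved with that library. The 5 listed of 8 neutrophil markers summed to 3459 FPKM in WT 1 and to 359 to 1043 FPKM elsewhere. S100A12, a calcium-binding protein of neutrophils and monocytes, led that sum with 1702 FPKM in WT 1, while ELANE, the neutrophil elastase, was at 0.275 to 1.05 FPKM in all 6 libraries, and CSF3R, CXCR2 and MPO were not analysed here. The B cell markers were lowest in WT 1, at 380 FPKM against 550 to 676 FPKM. Leptin 3, the library with the next lowest SLA-1, had a neutrophil sum of 583 FPKM. The sum of the 2 listed of 5 erythroid markers was highest in these same libraries. It was 217 FPKM in WT 1 and 102 FPKM in Leptin 3, against 21.8 to 63.4 FPKM elsewhere. Most of it came from HBB, a haemoglobin chain. ALAS2, the other marker, was at 3.85 to 6.86 FPKM and was highest in Leptin 2. The platelet markers, 4 of 5 listed, summed to 403 FPKM in WT 1, to 112 FPKM in Leptin 3 and to 182 to 368 FPKM elsewhere. The part of these cells in the SLA-1 level was not tested, and in bulk RNA fewer cells of a type and less RNA per cell cannot be told apart.

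SLA-11 (ENSSSCG00000001341, chromosome 7, 26674361 to 26716913) was as abundant as SLA-1 but far steadier. Its values were 809, 1184 and 688 FPKM in WT 1 to 3 and 766, 1177 and 830 FPKM in Leptin 1 to 3. WT 2 and Leptin 2 were the high libraries of their labels and lay within 1.01-fold of each other. The means were 894 ± 259 and 924 ± 221 FPKM (SD, n = 3 each), and the log2 fold change was 0.061 (SE 0.25, 95% interval -0.51 to 0.63, limma adjusted p = 0.993). With both replicate 1 libraries left out it was 0.13, and its sign turned under 3 other settings. Its row spans 42553 bp, while those of the other 4 SLA genes span 3421 to 4044 bp.

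The 3 non-classical loci lie within 27614 bp of chromosome 7. SLA-6 (ENSSSCG00000001398, 27602781 to 27606824) was the most abundant of them, with 189, 180 and 282 FPKM in WT 1 to 3 and 262, 223 and 305 FPKM in Leptin 1 to 3. Its groups overlapped, and the means of 217 ± 56.3 and 263 ± 41.2 FPKM (SD, n = 3 each) gave a log2 fold change of 0.30 (SE 0.21, 95% interval -0.20 to 0.79, limma adjusted p = 0.993). SLA-7 (ENSSSCG00000024161, 27613956 to 27617558) was the lowest member, at 34.2, 50.7 and 49.5 FPKM in WT 1 to 3 and 46.1, 45.8 and 61.2 FPKM in Leptin 1 to 3. WT 1 was again the lowest library, and the log2 fold change was 0.19 (SE 0.20, 95% interval -0.28 to 0.66, limma adjusted p = 0.993). Without both replicate 1 libraries the log2 fold changes were 0.21 for SLA-6 and 0.078 for SLA-7. That of SLA-7 was 0.013 without WT 1 and 0.057 without Leptin 3, and that of SLA-6 ran from 0.18 without WT 2 to 0.50 without WT 3.

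SLA-8 (ENSSSCG00000001396, 27626974 to 27630394) was even in 5 libraries and high in the sixth. It was at 51.5, 55.1 and 65.8 FPKM in WT 1 to 3 and at 63.7, 275 and 80.9 FPKM in Leptin 1 to 3. Leptin 2 was 3.40-fold above the next highest library, Leptin 3, and the remaining values ran together across the labels. The log2 fold change was 0.97 (SE 0.48, 95% interval -0.14 to 2.08), with an unadjusted p of 0.0797 and an adjusted p of 0.993 in limma, and the exact permutation p was 0.2. It fell to 0.32 without Leptin 2 and was 1.30 without both replicate 1 libraries. Leptin 2 did not stand apart at the adjoining SLA-6 and SLA-7 rows, where it held 223 and 45.8 FPKM. Its monocyte marker sum of 915 FPKM was the highest of the 6, but WT 1 had 887 FPKM with 51.5 FPKM of SLA-8. The sum of the 2 listed of 4 dendritic cell markers was highest in Leptin 2, at 16.8 FPKM against 6.86 to 10.5 FPKM elsewhere. The T cell marker sum of Leptin 2 was the lowest, at 846 FPKM. The part of these cells in the SLA-8 level was not tested.

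Summed over the 5 SLA rows, the level came to 1134, 2585 and 1862 FPKM in WT 1 to 3 and to 2015, 2938 and 1701 FPKM in Leptin 1 to 3. The labels overlapped, with means of 1861 ± 725 and 2218 ± 643 FPKM (SD, n = 3 each). The difference of their mean log2 values was 0.29, and 0.027 without both replicate 1 libraries. SLA-1 gave 4.43% of the sum in WT 1, 24.9% in Leptin 3 and 41.4 to 43.5% in the other 4 libraries, whereas SLA-11 gave 71.3% in WT 1 and 36.9 to 48.8% in the others. SLA-8 gave 9.37% in Leptin 2 and at most 4.76% elsewhere. Class I loci are close in sequence, so reads may have been divided among them, and the level of a single locus is uncertain. The sum is uncertain too, because it leaves out neighbouring class I rows listed as TMP-SLA. Of these TMP-SLA-2 alone held 904 to 5491 FPKM, and reads divided with such rows fall outside the sum.

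**Figure D3:**
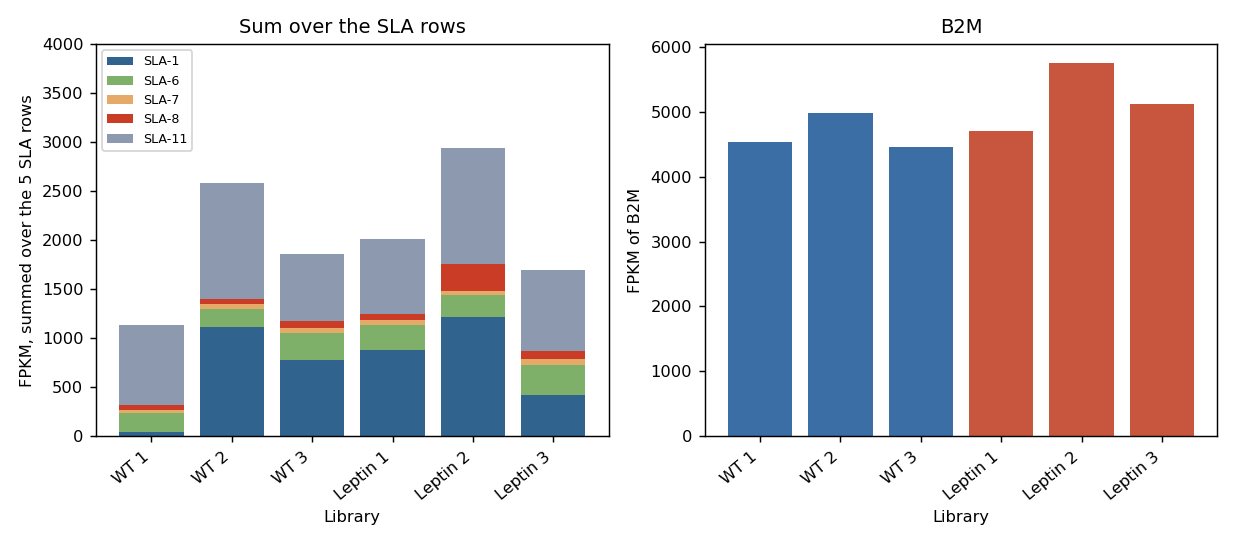
Left, FPKM of the 5 SLA rows stacked for each library (x axis); right, FPKM of B2M in the same libraries, blue for the WT label and red for the Leptin-overexpressing label. The SLA sum runs from 1134 to 2938 FPKM with a thin SLA-1 part in WT 1, while B2M stays between 4452 and 5752 FPKM.

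The light chain gene was even. B2M (ENSSSCG00000004682, chromosome 1, 141532504 to 141538781) was at 4525, 4974 and 4452 FPKM in WT 1 to 3 and at 4704, 5752 and 5115 FPKM in Leptin 1 to 3, and it ranked between 2 and 6 among all rows in each library. WT 2 lay above Leptin 1, so the labels overlapped. The means were 4650 ± 282 and 5190 ± 528 FPKM (SD, n = 3 each), and the log2 fold change was 0.16 (SE 0.15, 95% interval -0.18 to 0.49, limma adjusted p = 0.993), or 0.20 without both replicate 1 libraries and 0.079 without Leptin 2. The interval from all 6 libraries covers folds of 0.882 to 1.41. The ratio of B2M to the SLA sum was 3.99 in WT 1 and 3.01 in Leptin 3, and 1.92 to 2.39 in the other 4 libraries. The size of this ratio depended on which rows were summed. With the neighbouring TMP-SLA rows added it was 2.10 in WT 1, 1.27 in Leptin 3 and 0.615 to 0.809 in the other 4.

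Of the loading genes, TAP2, the transporter subunit (ENSSSCG00000025173, chromosome 7, 29412164 to 29423473), was at 332, 410 and 364 FPKM in WT 1 to 3 and at 330, 479 and 558 FPKM in Leptin 1 to 3. Leptin 2 and Leptin 3 were above every WT library and Leptin 1 was below them all. The log2 fold change was 0.28 (SE 0.21, 95% interval -0.22 to 0.77, limma adjusted p = 0.993), and 0.42 without both replicate 1 libraries (limma adjusted p = 0.999). With 1 library left out it ran from 0.11 without Leptin 3 to 0.49 without Leptin 1. TAPBP, the tapasin gene (ENSSSCG00000001507, chromosome 7, 34167700 to 34176411), was at 129, 136 and 132 FPKM in WT 1 to 3 and at 130, 135 and 154 FPKM in Leptin 1 to 3. It had the smallest within-label spread of the 8 members, an SD of 0.095 on the log2 scale, and only Leptin 3 stood slightly above the rest. Its log2 fold change was 0.075 (SE 0.14, 95% interval -0.25 to 0.40, limma adjusted p = 0.993), or 0.11 without both replicate 1 libraries and 0.0022 without Leptin 3.

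TAP2 is represented by a second row, which has no symbol in the table and was named from the reference gene list (ENSSSCG00000025593, chromosome 7, 29257058 to 29268365). That row held 27.7 to 30.9 FPKM, or 5.10 to 8.03% of the sum of both rows. TAP1, PSMB8 and PSMB9, the genes beside TAP2, had 2 rows each in the same 2 stretches of chromosome 7, and the copy in the stretch of lower coordinates held 8.11 to 11.5%, 16.3 to 19.3% and 21.2 to 24.5% of their sums. Reads may have been split between such copies. The sum of both TAP2 rows was 399 ± 39.98 FPKM for the WT label and 484 ± 117 FPKM for the Leptin-overexpressing label (SD, n = 3 each).

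The rows next to SLA-1 carried a pattern of their own across the libraries. They were chosen after their values were seen and fall outside the rule, being listed as TMP-SLA or by a clone name, and 8 rows including SLA-1 fill chromosome 7 from 24603747 to 24751642. TMP-SLA-3 was at 89.8, 720 and 720 FPKM in WT 1 to 3 and at 776, 914 and 89.8 FPKM in Leptin 1 to 3. TMP-CH242-74M17.6, a row of 490 bp, was at 2.22, 2216 and 2736 FPKM in WT 1 to 3 and at 2975, 3608 and 2.25 FPKM in Leptin 1 to 3. In both rows WT 1 and Leptin 3 were the low libraries by a wide margin. These were also the 2 libraries with the lowest SLA-1 and the lowest TMP-SLA-2, the latter at 904 and 2218 FPKM against 2918 to 5491 FPKM. Other rows did not follow this order. TMP-CH242-74M17.2, an abundant row, was at 1377 and 1050 FPKM in these libraries, was lowest in WT 2 at 235 FPKM, and held 795 to 1245 FPKM in the remaining 3. TMP-SLA-5 was at 22.0 and 23.4 FPKM in WT 1 and Leptin 3 and at 5.84 to 15.8 FPKM in the rest.

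**Figure D4:**
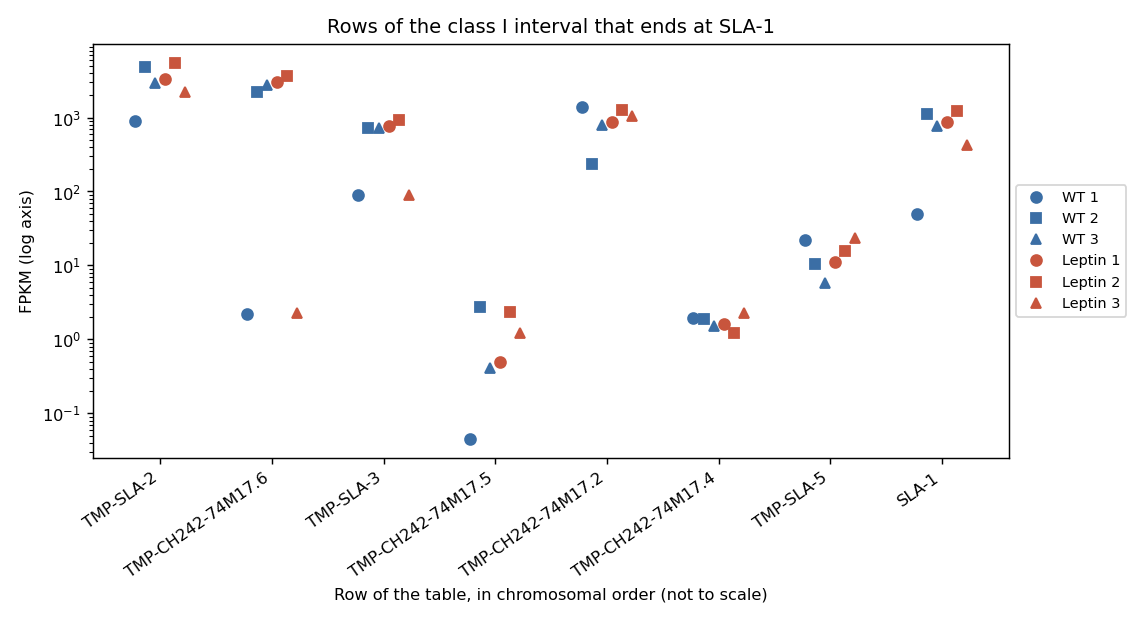
FPKM (y axis, log scale) of the 8 rows of the class I interval that ends at SLA-1 (x axis, in chromosomal order and not to scale), 1 point per library, with blue for the WT label, red for the Leptin-overexpressing label and the marker shape for the replicate number. WT 1 and Leptin 3 lie together near 2 FPKM at TMP-CH242-74M17.6 and at 89.8 FPKM at TMP-SLA-3, far below the other 4 libraries.

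Likeness between libraries in this interval did not follow the labels. The mean absolute log2 difference over the 8 rows was 0.76 between WT 1 and Leptin 3, and 2.09 to 3.09 between either of them and any other library. Much of that gap came from a single row, TMP-CH242-74M17.6 of 490 bp. It was at 2.22 and 2.25 FPKM in WT 1 and Leptin 3 and at 2216 to 3608 FPKM elsewhere. The means without this row were not computed, so the gap over the remaining rows is not given. Among the other 4 libraries it was 0.21 to 0.71, where WT 3 and Leptin 1 were the most alike and Leptin 1 and Leptin 2 came next, at 0.51. WT 3 and Leptin 1 were also the most alike pair over the 5 SLA rows, at 0.12, and over all 10735 genes tested, at 0.20. WT 1 was at least 1.05 from every library over the 5 SLA rows, but 0.32 to 0.52 with SLA-1 and SLA-8 left out, where WT 2 and WT 3 differed by 0.49. The spread exceeded 10-fold in 4 of the 8 rows, and the labels overlapped in all 8. These are descriptions of 6 animals with no test, and the cause of the pattern was not tested. With the 3 TMP-SLA rows added, the class I sum was 2150, 8074 and 5506 FPKM in WT 1 to 3 and 6118, 9360 and 4032 FPKM in Leptin 1 to 3, so WT 1 and Leptin 3 were the lowest on this count also.

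No row of the wider class I pathway passed the test between the labels. Of 62 genes in a list of class I antigen presentation, 51 were listed, in 55 rows. The limma fit put 0 of the 55 rows past an adjusted p of 0.05, against 0.00932% of all genes tested. At an unadjusted p under 0.05 it put 0, against 3.18%, and the smallest unadjusted p was 0.0738. The log2 fold change was above 0 in 41 rows and below 0 in 14, or 74.5% above 0 with a median of 0.094, beside 63.1% and 0.059 over all genes. The list includes the members B2M, TAP2 and TAPBP. Without these member rows 38 of 52 were above 0, or 73.1%, with a median of 0.079. It was above 0 in 31 rows with median-of-ratios scaling, in 31 without WT 1 and in 33 without both replicate 1 libraries, beside 50.5%, 51.6% and 43.2% of all genes. The medians in these settings were 0.029, 0.025 and 0.058, beside 0.0022, 0.0066 and -0.032 over all genes. The groups did not overlap in 4 rows, or 3 higher and 1 lower, where the background is 5.0% higher and 2.63% lower. CD1D, a class I-like molecule that presents lipids, was at 31.5 to 41.6 FPKM for the WT label and 43.4 to 51.5 FPKM for the other (limma adjusted p = 0.993). FCGRT, the heavy chain of the neonatal Fc receptor, was at 122 to 136 FPKM and 139.5 to 169 FPKM, PSME1, a proteasome activator subunit, at 212 to 261 FPKM and 266 to 292 FPKM, and JAK1, a kinase of interferon receptors, at 76.5 to 78.2 FPKM and 58.4 to 73.2 FPKM.

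By step of the pathway, fold changes of the 9 proteasome rows, which stand for 7 genes, were above 0, with a median of 0.15. The share of all genes above 0 was 63.1%, to be set beside this count and those of the other steps. For the proteasome rows the count and median were 8 and 0.082 with median-of-ratios scaling, 6 and 0.013 without WT 1, and 6 and 0.12 without both replicate 1 libraries. In these settings 50.5%, 51.6% and 43.2% of all genes were above 0. The main row of PSMB8, an immunoproteasome subunit, ran from 317 to 462 FPKM, and that of PSMB9, another, from 99.1 to 211 FPKM with WT 1 the lowest. Of the 4 transporter rows 1 was above 0, and the main TAP1 row held 401 to 653 FPKM with a log2 fold change of -0.013 (SE 0.20). Of the 7 peptide trimming rows 6 were above 0, and ERAP1, an aminopeptidase of the endoplasmic reticulum, was at 53.2 to 67.96 FPKM. Of the 8 chaperone and loading rows 5 were above 0. The lectin chaperones CALR and CANX had log2 fold changes of 0.13 and -0.023, and PDIA3, the disulfide isomerase of the loading complex, 0.064. Of the 16 regulator rows 10 were above 0. IRF1, which binds class I promoters, was at 189, 215 and 225 FPKM in WT 1 to 3 and at 217, 271 and 299 FPKM in Leptin 1 to 3 (log2 fold change 0.31, SE 0.17, limma adjusted p = 0.993). CD8A and CD8B, the coreceptor chains that bind class I, had log2 fold changes of 0.013 and 0.28. None of these rows passed the test.

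Interferon induces class I genes in many cells, and interferon response genes differed widely among these animals. The 20 listed of 22 such genes summed to 4217, 6094 and 2084 FPKM in WT 1 to 3 and to 2127, 4582 and 3011 FPKM in Leptin 1 to 3. The relation of each member to the mean log2(FPKM + 1) of this list over the 6 libraries was computed after the values were seen. SLA-11 was higher where the list was higher, with Pearson's r of 0.86 (exact permutation p = 0.0139, adjusted p = 0.111 over 8 relations) and Spearman's rho of 0.94 (exact permutation p = 0.0167, adjusted p = 0.133), while SLA-6 was lower there, with r of -0.85 (exact permutation p = 0.0472, adjusted p = 0.189) and rho of -0.77 (exact permutation p = 0.103, adjusted p = 0.411). Without WT 2 and WT 3, the 2 libraries farthest from the median of the list, r was 0.68 for SLA-11 and -0.72 for SLA-6. No relation passed the adjustment. The list itself was not uniform: GBP1 and GBP2, interferon-induced GTPases, were highest in Leptin 3 (232 and 84.0 FPKM) and WT 3 (183 and 56.5 FPKM), which were also the highest libraries for SLA-6. For the other 6 members r lay between -0.18 and 0.42, the latter for B2M.

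**Figure D5:**
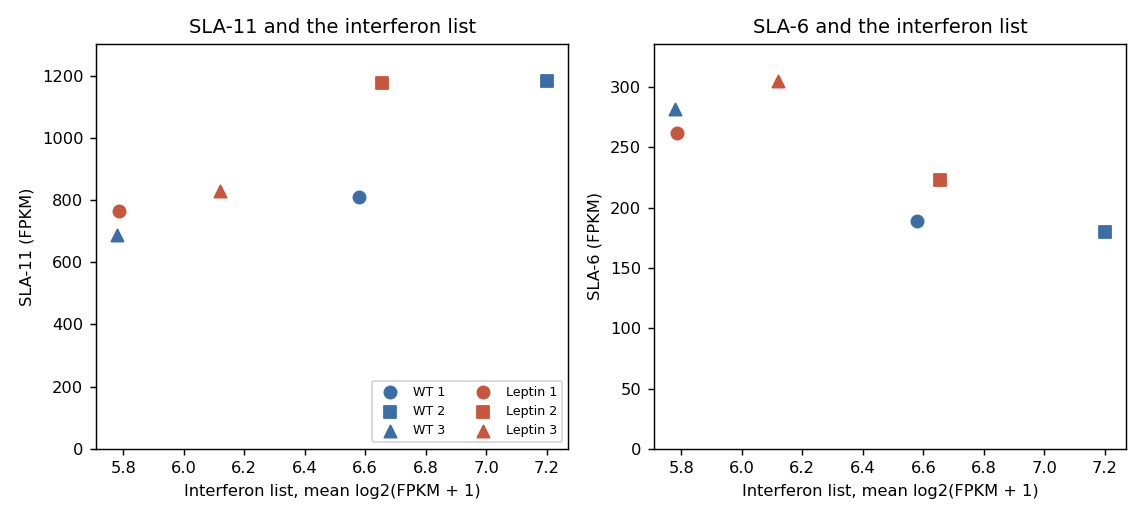
FPKM of SLA-11 (left) and SLA-6 (right) on the y axes against the mean log2(FPKM + 1) of the 20 interferon response genes (x axes), 1 point per library, with blue for the WT label, red for the Leptin-overexpressing label and the marker shape for the replicate number. SLA-11 is highest in WT 2 and Leptin 2 (1184 and 1177 FPKM), and SLA-6 is lowest in WT 2 (180 FPKM).

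The genes whose centred log2 levels were nearest to those of B2M were found among 5086 genes with a mean of at least 10 FPKM, by the mean absolute difference over the 6 libraries. The nearest, at 0.031, was a row without a symbol (ENSSSCG00000004687, chromosome 1, 141436331 to 141517774), which ends 14729 bp before B2M and held 37.9 to 41.3% of the B2M level in every library. The RefSeq annotation of another pig assembly, Sscrofa11.1, lists 2 genes named B2M with 1 gene between them, and whether the unnamed row is such a copy was not tested. PBX2, ADAM17, the row ENSSSCG00000013364 and TXNRD1 followed, at 0.033 to 0.044. For the SLA sum the nearest of 5087 genes were PTPRO, DAPP1 and the rows ENSSSCG00000001458, ENSSSCG00000008786 and ENSSSCG00000014167, at 0.10 to 0.12. The row called PTPRO (ENSSSCG00000000601) has no symbol of its own and took that name from the reference gene list. PTPRO stood at 6.67 FPKM in WT 1 and at 9.12 to 15.0 FPKM in the others, following the low WT 1 value of the sum. With 6 libraries and so many candidates, such likeness is a description only.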

How the data were processed

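Whole-PBMC RNA of 6 pigs was extracted with TRIzol and made into strand-specific TruSeq libraries. The authors deposited FPKM values, 1 per gene and library. The study's methods give paired 101 bp reads, Bowtie, the Ensembl version 75 transcriptome and RSEM, whereas the submitters' processing notes name FastQC, STAR 2.5, Cuffnorm and DESeq 1.22.1, so how reads shared by similar SLA loci were assigned is uncertain. The table also holds the authors' own comparison (a log2 fold change, p-value, FDR and up or down mark), and none of it was used. Groups came from the sample labels and columns were matched to samples by animal code.

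Genes with at least 1 FPKM in at least 3 libraries (10735) were fitted as log2(FPKM + 1) by labelled genotype with limma 3.58.1 in R 4.3.3, two-sided, with Benjamini-Hochberg adjustment over all of them and a threshold of 0.05. This scale understates fold changes of low genes. Exact permutation tests used SciPy 1.17.1 in Python 3.11.15. The members and lists were chosen with earlier results of these data known. Every member was named. From the pathway list, rows whose groups did not overlap or whose unadjusted p was under 0.05, and a set of genes chosen for their roles, were named. A gene of that set is not reported here. Of the 4000 rows without a symbol, 1504 were named from the reference gene list. These names were used for the lists and for PTPRO. Tested on simulated data, the fit recovered 185 of 200 genes of this comparison changed by 2 on the log2 scale among 10735, with 11 false calls. The simulated noise was independent between genes and the labels were taken as right. This check therefore gives no power for the smaller fold changes of the members.

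FPKM carries no read counts, so the depth of each library is unknown and no counting interval is given. Among rows under 1 FPKM, the commonest ratio to Leptin 3 was 0.946 to 1.13 in 4 of the other 5 libraries, shared by 15 to 28 rows each, and WT 2 showed no clear step. Alternatives were another pseudocount, other filters, median-of-ratios scaling, no variance moderation, a replicate block, Y-linked RNA as a covariate, and leaving out each library or both replicate 1 libraries. No sequences are shown.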

Additional observations from a re-analysis of the deposited data

How the results depend on the processing

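No member passed an adjusted p of 0.05 in limma under any of 14 alternatives, with a lowest adjusted p of 0.614. In the 10 alternatives that could move a fold change, 75 of 80 refitted values of the members kept their sign. With 1 library left out SLA-1 ran from -0.28 to 1.94 and SLA-11 from -0.13 to 0.28. SLA-1 turned to -0.28 without WT replicate 1 and to -0.37 with both replicate 1 libraries left out. SLA-11 turned to -0.0047 with median-of-ratios scaling, to -0.11 without WT replicate 3 and to -0.13 without Leptin-overexpressing replicate 2. The count of members at an unadjusted p under 0.05 was 0 as reported and 0 to 2 with 1 library left out (SLA-6 without WT replicate 3, where 7.99% of all genes were called, SLA-8 and TAP2 without Leptin-overexpressing replicate 1, where 2.34% were, and SLA-8 without Leptin-overexpressing replicate 3, where 3.52% were). With the replicate number as a block (replicate block) the count was 1 of 8 against 3.58% of all genes. That gene was SLA-8, whose adjusted p in limma was 0.999. Each replicate number covers a WT and a Leptin-overexpressing animal, whose deviations from the group means correlated at -0.28, 0.13 and -0.0073. Between animals of different numbers the correlations ran from -0.26 to 0.34. These values show no closer likeness within a number, but so few animals cannot decide whether the numbers mark a pairing.

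For the pathway list the count at an unadjusted p under 0.05 was 1 of 55 with no variance moderation, where 3.21% of all genes were called, and 0 to 2 with 1 library left out, the latter without Leptin-overexpressing replicate 1, where 2.34% were. Over all genes the count at the adjusted p was 1 as reported, 0 with at least 1 FPKM required in all 6 libraries, 0 with no variance moderation, 2 with the replicate block, 0 with both replicate 1 libraries left out and 0 to 3 with 1 library left out. At the unadjusted p it was 341 as reported and 247 to 846 with 1 library left out, the latter without WT replicate 3. With Y-linked RNA as a covariate, chosen after seeing the data, it was 180, and the fold changes of all 8 members stayed above 0, with SLA-1 at 0.88 and SLA-8 at 0.71. The difference between the labels in the mean log2 of the SLA sum was 0.29. It was 1.12 for SLA-1 alone, the only row listed under the symbols SLA-1, SLA-2 or SLA-3. The rows TMP-SLA-2 and TMP-SLA-3 had log2 fold changes of 0.56 and 0.15. The difference for the SLA sum ran from -0.023, without WT replicate 1, to 0.57 with 1 library left out. With SLA-8 left out or the TMP-SLA rows added, both chosen after seeing the data, it was 0.26 and 0.42. The cause was not tested for any of these changes.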
